A study of Saccharomyces cerevisiae with 27 samples.

Results

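Long-term hypoxic growth was set against short-term argon exposure in budding yeast, gene by gene, with 3 libraries in each group out of 27 in the series. All cells were the Saccharomyces cerevisiae background strain BY4742, of the S288C background, a haploid MATalpha strain in which HIS3, LEU2, LYS2 and URA3 are deleted. ArgonST is growth under argon for 90 min, ArgonLT is growth in a microfermenter that the submitters describe as long-term hypoxic exposure, and BY is the aerobic reference grown in the same CSM medium. The labels used here give no duration for ArgonLT, so exposure time, culture vessel, growth stage and nutrient state cannot be told apart between the hypoxic groups. Genes were taken from the authors' deposited table, which gives 1 log2 fold change over BY and 1 q value per gene and group, where q is the p value after adjustment for the many genes tested. The value described below is the log2 fold change of ArgonLT minus that of ArgonST, in which the BY reference cancels. Of all 6709 genes listed, 5837 had a value in both comparisons and 872 were left out because at least 1 group was listed at 0. The table holds no value per library and no error, so these differences are descriptions without a test, and the depth is unknown. The words rose and fell are kept for changes over BY with the authors' q under 0.05, and a gene counts as apart between the hypoxic groups where the difference reached 2-fold.

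Yeast can grow without oxygen, but several of its pathways need molecular oxygen: the desaturation of fatty acids by Ole1, several late steps of ergosterol synthesis, haem synthesis and respiration. Haem serves as the cell's oxygen signal. With haem the activator Hap1 keeps the repressor Rox1 made, and without it Rox1 targets are released, while Upc2 responds to falling sterol and switches on sterol uptake and a set of cell wall mannoproteins. A cell that stays without oxygen takes sterol and unsaturated fatty acid from the medium, remodels its wall and depends on fermentation for energy. Growth rate and nutrient supply act on other genes, among them those for ribosomes, purine synthesis and alternative carbon sources.

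The differences had a median of 0.08 on the log2 scale, quartiles of -0.50 and 0.68, and 5th and 95th percentiles of -1.67 and 2.00. At the 2-fold limit, 976 genes were higher in ArgonLT (16.7% of the 5837), 687 were lower (11.8%) and 4174 (71.5%) lay within it. These shares are the background for the list counts below. The authors' deposited table calls 266 genes that rose (4.86% of 5474 tested) and 132 that fell (2.41%) in ArgonST, against 1372 that rose (24.1% of 5702 tested) and 1052 that fell (18.4%) in ArgonLT. The interquartile range of the log2 fold changes over BY was 0.48 in ArgonST and 1.23 in ArgonLT, so much of the spread of the differences came with the long-term side. Of the genes 2-fold apart, 747 of the 976 higher and 559 of the 687 lower had been called in at least 1 of the hypoxic groups. Another 229 higher and 128 lower genes had no call in either group, beside 3319 of all 5837 genes. Calls and differences rest on the same log2 fold changes, so the calls are no separate support for the differences. Differences over 8 in absolute value were listed for 4 genes, of which 1, the seripauperin gene PAU5, was called.

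**Figure D1:**
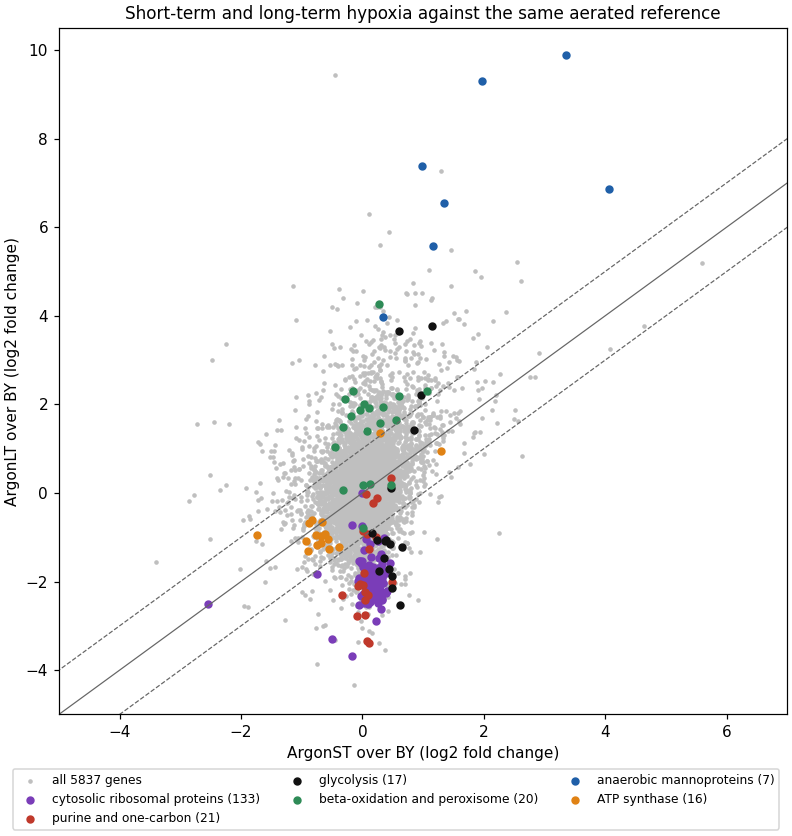
Each point is 1 of the 5837 genes, with the log2 fold change over BY in ArgonST on the horizontal axis and in ArgonLT on the vertical axis, as the authors' deposited table gives them. The solid line marks equal values and the dashed lines a 2-fold difference, 6 genes lie outside the axes, and the coloured lists show mannoproteins and beta-oxidation genes mostly above the lines, ribosomal protein, purine and glycolytic genes mostly below, and ATP synthase genes near the line of equal values and mostly left of 0.

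The labels were checked against oxygen-regulated genes and strain markers. ANB1 and HEM13 rose in both hypoxic groups of the authors' deposited table, each at a q of 0.000304. They rose by 5.59 and 2.84 in ArgonST and by 5.20 and 2.63 in ArgonLT. Of the other oxygen-limited markers, COX5B, AAC3, TIR1 and TIR4 rose in both groups, AUS1 rose in ArgonLT alone and DAN1 was called in neither. Of the markers of aerated growth, COX5A fell in both and CYC1 was called in neither. HEM1 and CTT1, also aerated markers, rose in ArgonLT, by 0.72 and 1.37. LEU2 and LYS2 were listed at 0 in both comparisons. URA3, likewise deleted in this strain, was listed at 0 in BY and ArgonST but above 0 in ArgonLT, with a q of 1 that leaves the gene untested. HIS3 had values of 0.17 and 1.46 with no call. STE2, the receptor made by MATa cells, rose by 2.32 in ArgonLT (q 0.00153), while STE3, its MATalpha counterpart, fell by 0.74 (q 0.0212). The other MATalpha marker, the alpha-factor gene MF(ALPHA)1, had 0.26 in ArgonST and -0.32 in ArgonLT with no call in either. The a-factor gene MFA1 was listed above 0 in ArgonLT alone, untested. Whether other cells contributed to these values was not tested.

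The upstream sequences of 6 genes that carry the patterns below are shown first, each the 250 bases before the start codon on the coding strand, read from the RefSeq R64 genome, the build the submitters name. ANB1 (chrX:525382-525631, minus strand) was high in both hypoxic groups, and capitals mark ATTGTT, the core recognised by Rox1. INO1 (chrX:135934-136183, minus strand) and OPI3 (chrX:572936-573185, minus strand) were far higher in ArgonLT, and capitals mark CATGTG, the core bound by the Ino2-Ino4 activator of phospholipid genes. ADE17 (chrXIII:509281-509530, minus strand) and MTD1 (chrXI:590145-590394, plus strand) were far lower in ArgonLT, and capitals mark TGACTC, the core bound by the activators Gcn4 and Bas1. NOP56 (chrXII:545847-546096, plus strand) stands for ribosome biogenesis, and capitals mark the GATGAG (PAC) and AAATTTT (RRPE) elements of that set. Either strand was searched, so a capital run may hold the reverse complement of the motif, and touching matches run together.
ANB1: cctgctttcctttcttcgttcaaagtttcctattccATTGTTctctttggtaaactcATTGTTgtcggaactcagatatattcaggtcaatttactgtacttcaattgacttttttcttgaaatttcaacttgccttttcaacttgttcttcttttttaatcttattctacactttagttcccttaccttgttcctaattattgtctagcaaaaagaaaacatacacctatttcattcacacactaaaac
INO1: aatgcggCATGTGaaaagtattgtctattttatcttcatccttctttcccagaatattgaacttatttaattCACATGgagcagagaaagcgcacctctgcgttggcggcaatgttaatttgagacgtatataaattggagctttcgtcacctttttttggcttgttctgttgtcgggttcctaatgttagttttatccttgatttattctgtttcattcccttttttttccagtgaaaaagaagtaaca
OPI3: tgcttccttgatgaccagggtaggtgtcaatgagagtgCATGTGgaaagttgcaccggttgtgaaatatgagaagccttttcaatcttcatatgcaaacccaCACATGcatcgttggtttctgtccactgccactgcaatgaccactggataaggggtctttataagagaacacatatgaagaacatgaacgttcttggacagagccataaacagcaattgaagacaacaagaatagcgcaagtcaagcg
ADE17: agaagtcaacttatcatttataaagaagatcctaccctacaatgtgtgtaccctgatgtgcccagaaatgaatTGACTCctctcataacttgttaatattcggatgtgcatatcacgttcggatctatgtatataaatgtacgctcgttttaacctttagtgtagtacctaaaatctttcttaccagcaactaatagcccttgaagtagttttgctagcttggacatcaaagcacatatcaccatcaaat
MTD1: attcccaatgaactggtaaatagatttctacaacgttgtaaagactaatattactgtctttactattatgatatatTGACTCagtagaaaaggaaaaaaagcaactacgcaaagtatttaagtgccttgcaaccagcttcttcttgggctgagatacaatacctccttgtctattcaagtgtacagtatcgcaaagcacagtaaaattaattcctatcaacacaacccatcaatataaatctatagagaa
NOP56: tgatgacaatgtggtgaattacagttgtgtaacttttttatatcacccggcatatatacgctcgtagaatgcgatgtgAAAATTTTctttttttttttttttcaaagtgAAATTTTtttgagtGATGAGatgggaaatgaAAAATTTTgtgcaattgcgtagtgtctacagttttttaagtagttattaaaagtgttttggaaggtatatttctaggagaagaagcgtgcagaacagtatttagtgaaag

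Among 6026 coding genes, 28.8% held ATTGTT in this window, against 7 of the 10 genes of the hypoxic isoform list. CATGTG stood in 5.54% of all promoters and in 12 of 20 phospholipid and inositol genes. TGACTC stood in 6.22% of all promoters, in 13 of 21 purine and one-carbon genes and in 31 of 59 amino acid synthesis genes, lists whose differences went opposite ways. The Aft1 core TGCACCC was held by 1.15% of all promoters and by 10 of 26 iron genes, and the E-box CACGTG by 2.72% and by 9 of 30 methionine and sulfur genes. In ribosome biogenesis 67 of 70 promoters held AAATTTT and 63 held GATGAG, against 21.6% and 17.0% of all. By direction of the difference, AAATTTT was found in 16.7% of promoters of genes 2-fold higher in ArgonLT and in 30.4% of those 2-fold lower, and in 31.1% of the latter without cytosolic ribosomal proteins. The Hap1 core CGGNNNTA had the opposite order, with 228 of 912 and 96 of 621, beside 18.4% of all promoters. By list it stood in 12 of 20 beta-oxidation genes, 5 of 10 mevalonate genes and 0 of 10 hypoxic isoform genes. ATTGTT was at 27.5% in both directions. Members of several lists are known targets of the factors searched, and a match is a string of letters and not a shown binding site.

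Genes of hypoxic isoforms, most of them known targets of Rox1, divided into some that stood about level in both groups and others that were higher in ArgonLT. Per the authors' deposited table, 6 of 9 tested genes of the hypoxic isoform list rose in ArgonST and 9 of 10 rose in ArgonLT, with no fall in either, and 5 of the 10 were at least 2-fold higher in ArgonLT. The median difference was 1.01, and 0.54 among genes tested in both comparisons. ANB1, the hypoxic form of the translation factor eIF5A, differed by -0.40. AAC3, the anaerobic ADP/ATP carrier, had 2.52 in ArgonST and 1.87 in ArgonLT. HEM13, coproporphyrinogen oxidase of haem synthesis, differed by -0.21, and the low-affinity iron transporter FET4, at 1.23 and 1.12, by -0.11. All of them rose in both groups and lay slightly lower in ArgonLT than in ArgonST. COX5B, the hypoxic cytochrome oxidase subunit, rose by 0.74 in ArgonST and by 2.22 in ArgonLT. OLE1, the desaturase, rose by 0.72 and 3.20, a difference of 2.49. ROX1 itself had -0.07 in ArgonST, with no call, and rose by 2.24 in ArgonLT. CYC7, the hypoxic cytochrome c, moved from -0.88 to 2.07 with no call in either comparison.

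The aerobic partners showed no common pattern. HYP2, the aerobic eIF5A, was at -0.05 in ArgonST and fell by 1.74 in ArgonLT, and PET9, the main ADP/ATP carrier, fell in both, with -0.94 and -1.71. COX5A also fell in both, with -0.71 and -0.80 in the authors' deposited table, a difference of -0.09. CYC1, the main cytochrome c, had -0.91 and -0.05 without a call. HMG1, an HMG-CoA reductase, had 0.02 and rose by 0.98. HAP1, the gene of the haem-responsive activator, stood in the same list though it is not an isoform of another gene. It rose in both, by 0.61 and 1.86. These are transcript values, and whether Hap1 protein was active in this strain was not tested. Reads of such near-identical pairs, ANB1 and HYP2 above all, may be shared between partners in the authors' counting, so the split within a pair is uncertain.

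Cell wall mannoproteins of the DAN and TIR families, which replace aerobic wall proteins in cells without oxygen, were the most separated list with more than 3 genes. All 7 members with a value in both groups were at least 2-fold higher in ArgonLT, with a median difference of 5.19, against 16.7% of all genes at that limit. The list also holds PAU23, 1 of these 7 at 7.32, and PAU24, and both are counted again among the seripauperins below. Per the authors' deposited table, 4 of 6 tested genes rose in ArgonST and 6 of 8 in ArgonLT. TIR1 had the highest called value of the family in ArgonST, 4.06, and reached 6.85 in ArgonLT. TIR2 rose by 1.35 and 6.54, TIR3 by 1.16 and 5.57. TIR4 (YOR009W, chromosome XV, 344335 to 345798) rose by 0.99 and 7.37, which makes it 83.6-fold higher in ArgonLT than in ArgonST. DAN4 had 0.33 in ArgonST, where it was not tested, and rose by 3.98 in ArgonLT. DAN1, at 3.35 and 9.88, was called in neither, and PAU24, also known as DAN2, was listed at 0 in BY and above 0 in both hypoxic groups. The aerobic wall mannoproteins were lower in ArgonLT: CWP1 (YKL096W, chromosome XI, 261132 to 261851) had 0.37 in ArgonST and fell by 3.55, the lowest difference of any called gene at -3.92, and CWP2 had -0.19 and fell by 2.29.

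The seripauperins, small subtelomeric mannoproteins related to TIR genes and known to be induced under anaerobic growth, could mostly not be expressed as a difference. Of 24 genes, 21 were left out, 9 of them listed at 0 in both comparisons, and 3 had a value. PAU5 had -0.45 in ArgonST, where it was not tested, and rose by 9.44 in ArgonLT (q 0.00651). PAU12 and PAU23 were higher by 2.98 and 7.32, with no call in either group. In ArgonLT 11 of 14 tested seripauperins rose in the authors' deposited table, against 0 of 1 tested in ArgonST. Seripauperin genes are near-identical in sequence, so how reads were divided among them is uncertain.

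**Figure D2:**
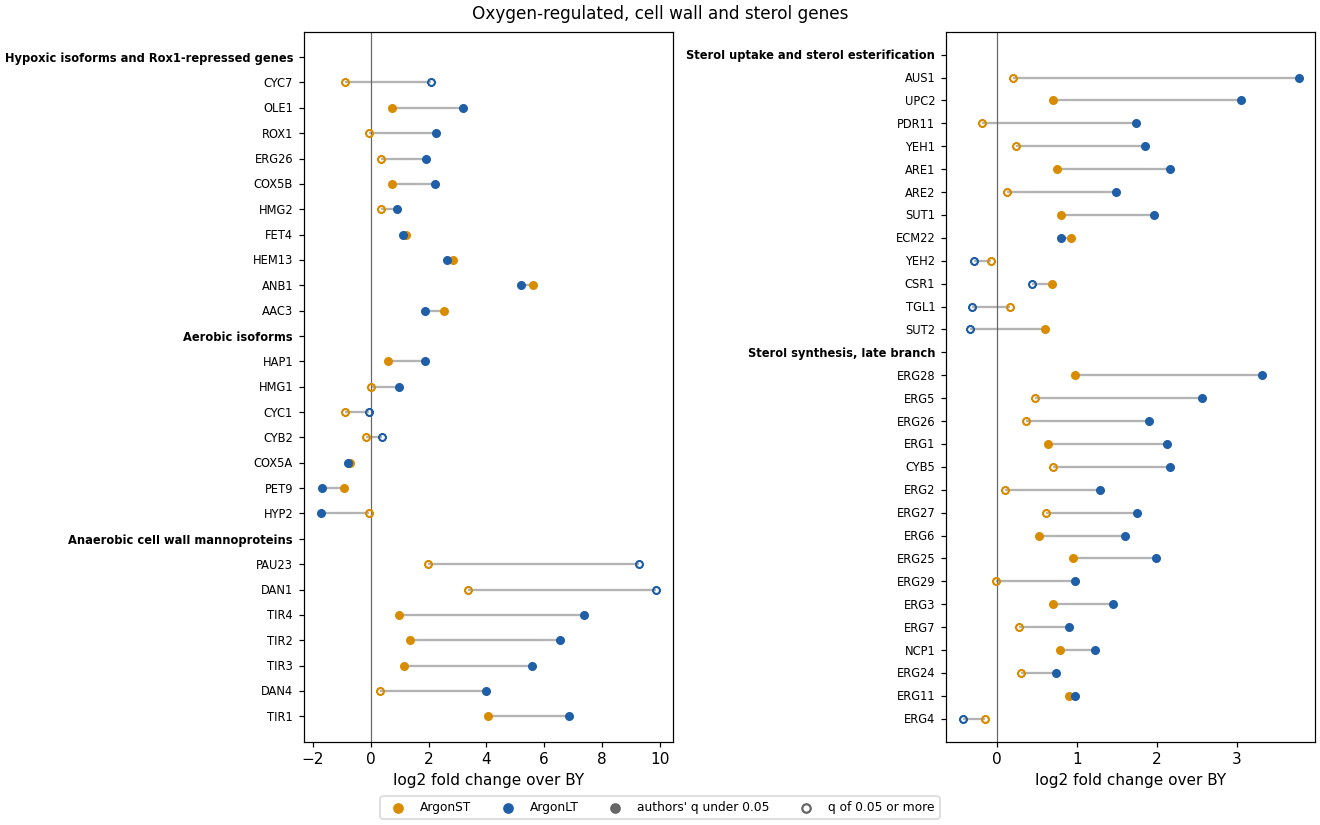
For each gene named on the vertical axis the orange point is its log2 fold change over BY in ArgonST and the blue point that in ArgonLT, joined by a line, with filled points for the authors' q under 0.05. HEM13, FET4 and ANB1 have points close together, whereas TIR and DAN genes, AUS1, UPC2, ERG28 and OLE1 have long lines toward higher values in ArgonLT.

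Genes of sterol import and storage were mostly higher in ArgonLT. AUS1, a plasma membrane ABC transporter that takes up sterol under anaerobic conditions, had 0.20 in ArgonST and rose by 3.77 in ArgonLT in the authors' deposited table. Its paralogue PDR11 had -0.19, untested, and rose by 1.74. UPC2, the activator of these genes, rose by 0.70 and by 3.05. ECM22, the paralogue of UPC2, rose by 0.92 and 0.80, a difference of -0.12. ARE1 and ARE2, which esterify sterol for storage, were higher by 1.41 and 1.36, and the sterol ester hydrolase YEH1 by 1.62. SUT1, a regulator of sterol uptake, was higher by 1.17, while SUT2 was lower with a difference of -0.95. Of the 12 genes in the list 7 were at least 2-fold higher and none 2-fold lower.

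More sterol synthesis genes were called in ArgonLT than in ArgonST. In the late branch, from squalene onward, 7 of 16 genes rose in ArgonST and 15 of 16 in ArgonLT, 9 were at least 2-fold higher in ArgonLT, and the median difference was 1.06. ERG28, a scaffold of the demethylation complex, rose by 0.97 and 3.31. ERG5, a C-22 desaturase, had 0.47 and rose by 2.56, and ERG1, the oxygen-requiring squalene epoxidase, rose by 0.64 and 2.12. ERG25, a methyl oxidase, rose by 0.95 and 1.98. ERG11, the lanosterol demethylase, rose by 0.89 and 0.97 with a difference of 0.08, and ERG4, the enzyme of the last step, had -0.15 and -0.43 without a call. In the mevalonate branch 1 of 10 genes rose in ArgonST and 10 of 10 in ArgonLT per the authors' deposited table, but only ERG8, which rose by 0.53 and 1.68, and ERG19, which had 0.06 and rose by 1.56, passed 2-fold. HES1, of the oxysterol-binding family, had 1.30 in ArgonST, where it was not tested, and rose by 7.27 in ArgonLT.

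Haem synthesis genes were almost level between the hypoxic groups, with 8 of 9 within 2-fold and a median difference of 0.07. HMX1, the haem oxygenase that degrades haem, was the exception, with 1.13 and 4.36 and no call.

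Among phospholipid and inositol genes, INO1 and then OPI3 had the largest differences between the groups. INO1 (YJL153C, chromosome X, 134332 to 135933), inositol-3-phosphate synthase, had 0.10 in ArgonST (q 0.809) and rose by 6.29 in ArgonLT (q 0.000304) in the authors' deposited table, which places it 72.9-fold higher in ArgonLT. OPI3, which methylates phosphatidylethanolamine toward phosphatidylcholine, had -0.33 and rose by 2.88. The activator genes INO2 and INO4 were higher by 1.39 and 1.56, their repressor OPI1 by 1.43, the inositol transporter ITR1 by 1.52 and the phosphatidate phosphatase PAH1 by 1.40. INO2 was the gene of this list that rose in ArgonST, by 1.04. In all, 8 of 20 were at least 2-fold higher, none lower, and in ArgonLT 11 rose and 1, ITR2, fell. CATGTG, marked above, occurred 2 times in each of the INO1 and OPI3 windows.

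Fatty acid genes had no common direction. FAS2, a subunit of fatty acid synthase, had 0.33 in ArgonST and rose by 2.02 in ArgonLT, and its partner FAS1 had 0.07 and rose by 0.93. ACC1, acetyl-CoA carboxylase, had 0.07 and rose by 0.95. Elongation genes were lower in the authors' deposited table, where IFA38, the ketoreductase of elongation, fell by 1.23 in ArgonLT after -0.10 in ArgonST, and the elongase ELO2 fell by 1.03 after 0.01. FAA3, an acyl-CoA synthetase, fell by 1.13 in ArgonLT, while FAA4 rose by 1.05 and 1.09 in both. The list of 15 had a median difference of 0.04, with 2 genes 2-fold higher and 3 lower, beside 16.7% and 11.8% of all genes.

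Respiratory genes had no common direction. Per the authors' deposited table, 5 of 9 genes of complex III fell in ArgonST, while in ArgonLT 2 rose and 2 fell. All 9 had a difference above 0, with a median of 0.60, and 3 were 2-fold higher. QCR6 fell by 0.85 in ArgonST and rose by 0.60 in ArgonLT. QCR10 fell by 1.85 and had -0.58 in ArgonLT, and RIP1, the iron-sulfur protein, fell by 1.28 in ArgonST and fell by 0.68 in ArgonLT. Complex II had a median difference of 0.65 over 4 genes and complex IV of -0.05 over 8, none of them 2-fold apart. ATP synthase genes were low in both groups, with 10 of 16 that fell in ArgonST and 13 of 16 in ArgonLT, and 15 of the 16 differed by less than 2-fold. Of 64 mitochondrial ribosomal protein genes none was 2-fold apart, and the median difference was -0.02.

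The external NADH dehydrogenases differed in opposite directions. NDE1 fell by 0.95 in ArgonST and fell by 2.31 in ArgonLT per the authors' deposited table. NDE2 had 0.04, untested, and rose by 3.06. In the TCA cycle 5 of 21 genes were 2-fold higher in ArgonLT and 4 lower, beside 16.7% and 11.8% of all genes. ACO1 and the isocitrate dehydrogenase genes IDH1 and IDH2 were lower in ArgonLT. ACO1, aconitase, had 0.18 and fell by 1.80, and IDH2 had 0.46 and fell by 1.55. IDH1 rose by 0.59 in ArgonST and fell by 1.02 in ArgonLT. LSC2, of succinyl-CoA ligase, fell by 0.59 in ArgonST and rose by 0.94 in ArgonLT. Of the citrate synthases, CIT1 differed by -0.32 without a call, the peroxisomal CIT2 rose by 1.11 and 1.70, and CIT3 was higher by 2.57. Other isocitrate dehydrogenase genes went the other way, with IDP1 higher by 1.20, the cytosolic IDP2 by 1.87 and IDP3 by 2.41.

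Glycolysis was lower in ArgonLT than in ArgonST for most genes. Of 17, 12 were at least 2-fold lower against 11.8% of all genes, 3 were higher, and the median difference was -1.46. In ArgonST 3 rose and none fell, and in ArgonLT 3 rose and 11 fell in the authors' deposited table. The genes that fell include the major isoforms: TDH2 (0.61 and -2.52) and TDH3 (0.27 and -1.77) of glyceraldehyde-3-phosphate dehydrogenase, ENO2 (0.49 and -2.16) of enolase, FBA1 (0.49 and -1.87) of aldolase, and TPI1 (0.44 and -1.71) of triose-phosphate isomerase, each pair giving ArgonST first. The genes that rose in ArgonLT are isoforms known from slow growth or low glucose: HXK1, with 1.14 in ArgonST and 3.78 in ArgonLT, TDH1, with 0.59 and 3.66, and PYK2, with 0.97 and 2.22. Their partners HXK2 and CDC19 had 0.37 and 0.36 in ArgonST and -1.08 and -1.46 in ArgonLT, the first of which was called. TDH and ENO isoforms are near-identical, so the division of reads between them is uncertain.

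**Figure D3:**
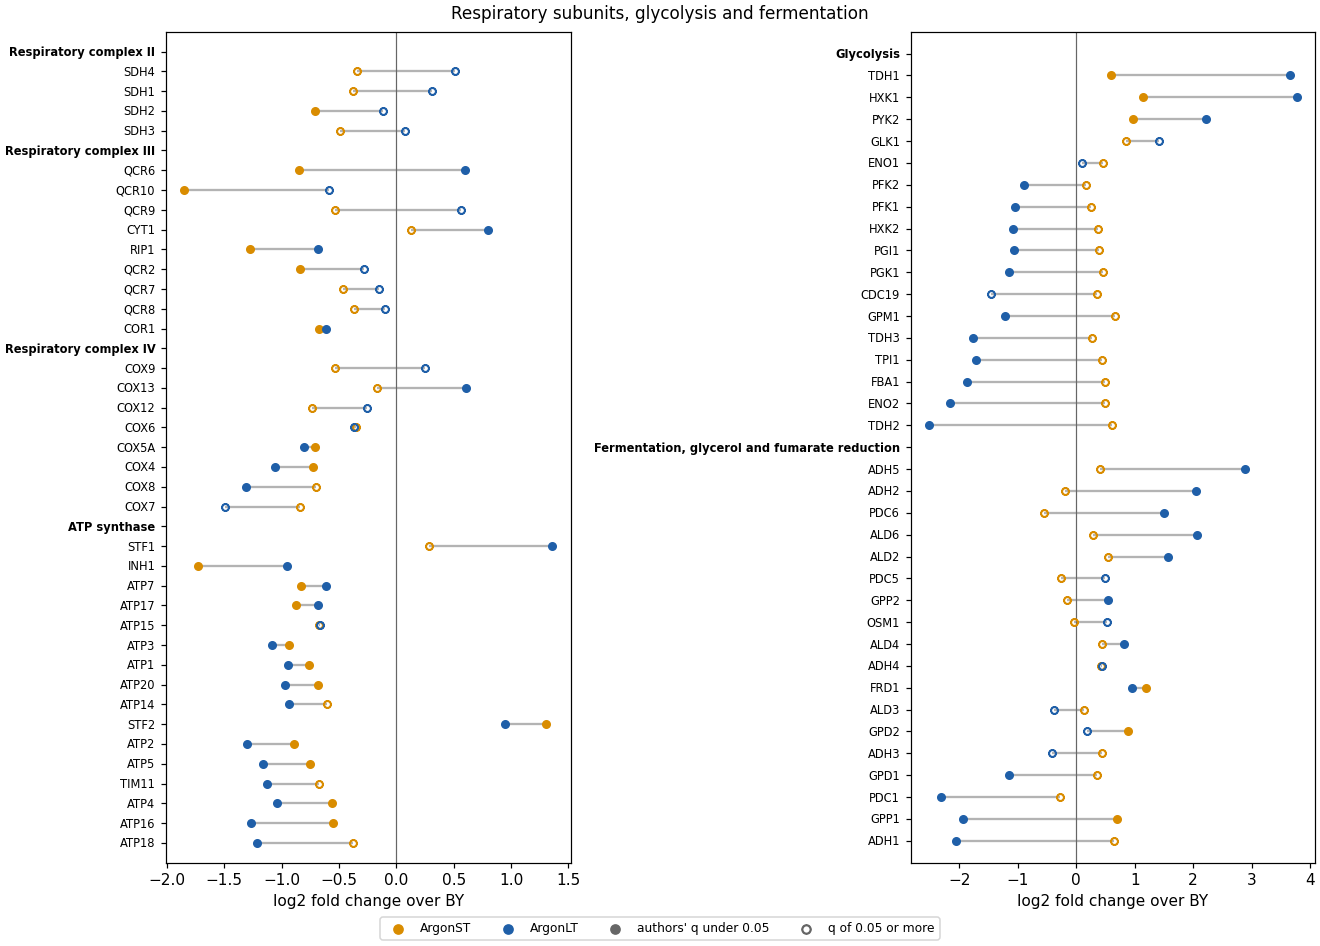
For each gene named on the vertical axis the orange point is its log2 fold change over BY in ArgonST and the blue point that in ArgonLT, with filled points for the authors' q under 0.05. ATP synthase genes other than STF1 and STF2 lie below 0 in both groups, complex III genes lie further right in ArgonLT, and most glycolytic genes cross from above 0 in ArgonST to below 0 in ArgonLT.

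Among alcohol dehydrogenase and pyruvate decarboxylase genes, ADH1 and PDC1 were lower in ArgonLT, and ADH2 and PDC6 higher. ADH1, the main fermentative alcohol dehydrogenase, had 0.64 and fell by 2.06 in ArgonLT, whereas ADH2, which oxidises ethanol, had -0.20 and rose by 2.04. PDC1, the main pyruvate decarboxylase, had -0.28 and fell by 2.32, while PDC6, a minor form, had -0.55 and rose by 1.49. ADH5 and the acetaldehyde dehydrogenase ALD6 were higher by 2.49 and 1.79. Genes of glycerol synthesis were mixed: GPP1, a glycerol-3-phosphatase, rose by 0.70 in ArgonST and fell by 1.94 in ArgonLT in the authors' deposited table, GPD1 had 0.36 and fell by 1.15, and GPD2, which serves redox balance without oxygen, rose by 0.88 in ArgonST and had 0.18 in ArgonLT without a call. GPP2, the other glycerol-3-phosphatase, had -0.15 in ArgonST and rose by 0.54 in ArgonLT. FRD1, a fumarate reductase, rose in both, by 1.19 and 0.95. Of 18 genes, 5 were 2-fold higher and 4 lower, beside 16.7% and 11.8% of all genes. The median difference was 0.20, or 0.03 among genes tested in both comparisons.

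Genes normally repressed by glucose were higher in ArgonLT. Of 17 with a value, 12 were 2-fold higher and none lower, the median difference was 1.40 (0.93 among genes tested in both comparisons), and in ArgonLT 11 of 14 tested genes rose per the authors' deposited table against 1 of 8 in ArgonST. SIP4, an activator of gluconeogenic genes, had -2.25, untested, and rose by 3.36. PCK1, phosphoenolpyruvate carboxykinase, had 0.94 and rose by 3.04, and the lactate transporter JEN1 had -0.16 and rose by 1.81. ICL1, isocitrate lyase of the glyoxylate cycle, differed by -0.27 with no call. The carnitine genes CAT2, CRC1 and YAT2, which shuttle acetyl units, were higher by 2.50, 3.44 and 2.48. In beta-oxidation and the peroxisome 15 of 20 genes were 2-fold higher and none lower, with a median of 1.54. POX1, acyl-CoA oxidase, had 0.27, untested, and rose by 4.26. The multifunctional enzyme FOX2, also untested in ArgonST, rose by 2.02 in ArgonLT. The thiolase POT1 was higher by 1.59, and PEX21 and IDP3 were higher by 2.46 and 2.41. Among hexose transporters 5 of 15 were 2-fold higher and 1 lower, beside 16.7% and 11.8% of all genes. Those higher include HXT4 at 2.10 and HXT3 at 1.56.

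Ribosomal protein genes were lower in ArgonLT almost throughout. Of 133 cytosolic ribosomal protein genes with a value, 129 were at least 2-fold lower in ArgonLT and none higher, against 11.8% of all genes that were lower, with a median difference of -2.15. Per the authors' deposited table, 1 of 135 tested rose and none fell in ArgonST, whereas none of 133 rose and 128 fell in ArgonLT. The lowest called was RPL9A, with 0.22 and -2.89, then RPL18B, with 0.31 and -2.62. The 4 within 2-fold were RPL22B at -0.73, RPL7B at -0.54, RPL15B at 0.01 and RPL22A at 0.03, named after their values were seen. RPL7A, the partner of RPL7B, had a difference of -2.74. Most of these genes have a near-identical copy, so values within a pair are uncertain. Values of a sequenced library are relative to its total, so these abundant transcripts and the rest of the library move against each other.

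Ribosome biogenesis genes, which build rather than form the ribosome, were mostly within 2-fold. Of 70, 8 were 2-fold lower, a share near the 11.8% of all genes, and none was higher, with a median of -0.37. In ArgonLT 31 fell, beside 18.4% of all tested genes, and in ArgonST 2 fell per the authors' deposited table. NOP1, the nucleolar methyltransferase fibrillarin, had -0.11 and fell by 1.59, and NOP56, of the same box C/D particle, had -0.16 and fell by 1.49.

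Genes of purine synthesis and one-carbon metabolism were lower in ArgonLT. All 21 genes with a value had a difference below 0, 15 were 2-fold lower, and the median was -2.00. None was called in ArgonST and 17 fell in ArgonLT in the authors' deposited table. ADE17, of the last steps to IMP, had 0.10 and fell by 3.38, and MTD1, a methylenetetrahydrofolate dehydrogenase, had 0.08 and fell by 3.34, which makes them 11.2-fold and 10.7-fold lower in ArgonLT than in ArgonST. ADE2 and SHM2, serine hydroxymethyltransferase, had differences of -2.79 and -2.70. FUR1, which salvages uracil, had -0.01 and fell by 3.06.

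Histone and cell cycle genes were lower as well. Of 11 histone genes 9 were 2-fold lower, with a median of -1.93. HTA2 and HTB2, a divergently transcribed H2A and H2B pair, had 0.27 and 0.09 in ArgonST and fell to -3.39 and -2.73 in ArgonLT in the authors' deposited table. CSE4, the centromeric H3 variant, had 0.04 and rose by 1.49. Of 36 cell cycle and replication genes, 10 were 2-fold lower and none higher, beside 11.8% and 16.7% of all genes. The mitotic cyclins CLB1 and CLB2 had differences of -2.63 and -2.17 and RNR1, of ribonucleotide reductase, of -2.47, while the G1 cyclin CLN3 differed by 0.03.

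Amino acid and sulfur genes were more often higher than lower in ArgonLT. Of 59 amino acid synthesis genes 23 were 2-fold higher and 7 lower, beside 16.7% and 11.8% of all genes, with a median of 0.65. In ArgonLT 32 rose and 7 fell in the authors' deposited table, beside 24.1% and 18.4% of all tested genes. Arginine genes were among the highest: ARG4 had -0.02 and rose by 3.56, ARG3 rose by 1.46 and 4.67, and ARG1 was higher by 3.04. SER3, of serine synthesis, rose by 0.92 in ArgonST and fell by 2.43 in ArgonLT. Of 29 methionine and sulfur genes 18 were 2-fold higher and 2 lower, with a median of 1.35, among them STR3 by 3.32, MET1 by 3.29 and the sulfate permease SUL2 by 3.02. For thiamine, biotin, NAD and vitamin B6, 16 of 35 were 2-fold higher and 1, the thiamine-repressed phosphatase PHO3, lower with a difference of -3.23. SNZ1, of vitamin B6 synthesis, was higher by 3.52 and BIO3, of biotin synthesis, by 3.26.

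Metal genes were uneven. In the iron regulon 11 of 26 genes were 2-fold higher and none lower, beside 16.7% and 11.8% of all genes. TIS11, which degrades mRNAs of iron-using proteins, had 0.98 in ArgonST, untested, and rose by 4.51 in ArgonLT. The cell wall mannoprotein FIT2 had -0.18 and rose by 3.02. The high-affinity uptake genes FET3 and FTR1 instead fell, to -0.55 and -0.56 in ArgonLT in the authors' deposited table, with ArgonST at -0.16 and 0.32. IZH2 and IZH4, membrane proteins linked to zinc and lipid metabolism, were higher by 2.76 and 2.47, and the zinc transporter ZRT2 had a difference of -1.32.

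Of 26 oxidative stress genes 21 were higher in ArgonLT than in ArgonST, with a median difference of 0.89. In ArgonST 1 of 25 tested genes rose and 5 fell, in ArgonLT 12 of 26 rose and 3 fell, and 12 were 2-fold higher in ArgonLT. TSA1, the main peroxiredoxin, fell by 1.72 in ArgonST and had -0.40 in ArgonLT, AHP1 fell by 1.67 and had -0.11, and SOD1, the copper-zinc superoxide dismutase, fell by 1.05 and had 0.54. GPX2 fell in both, with -3.40 and -1.55. TRX2, thioredoxin, fell by 0.97 and rose by 1.16 in the authors' deposited table. TSA2 had -0.32 and rose by 4.41, and OYE3, an NADPH oxidoreductase, had -2.49, untested, and rose by 3.00, a difference of 5.49.

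Heat shock genes had no common direction, with a median of -0.11. Of 24 genes 4 were 2-fold higher and 4 lower, shares near the 16.7% and 11.8% of all genes. HSP26, a small heat shock protein, had 0.20 and rose by 4.19, while SSB1, a ribosome-bound Hsp70, had -0.01 and fell by 2.14 in the authors' deposited table. None of 17 genes of the unfolded protein response was 2-fold apart, and 34 of 35 proteasome genes lay within 2-fold. For trehalose and glycogen 6 of 21 were 2-fold higher and 1 lower, beside the same 16.7% and 11.8% of all genes. The glycogen phosphorylase GPH1 had 0.58 and rose by 3.60, while the glycogen synthase GSY1 rose in both, by 2.14 and 1.87, a difference of -0.27.

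**Figure D4:**
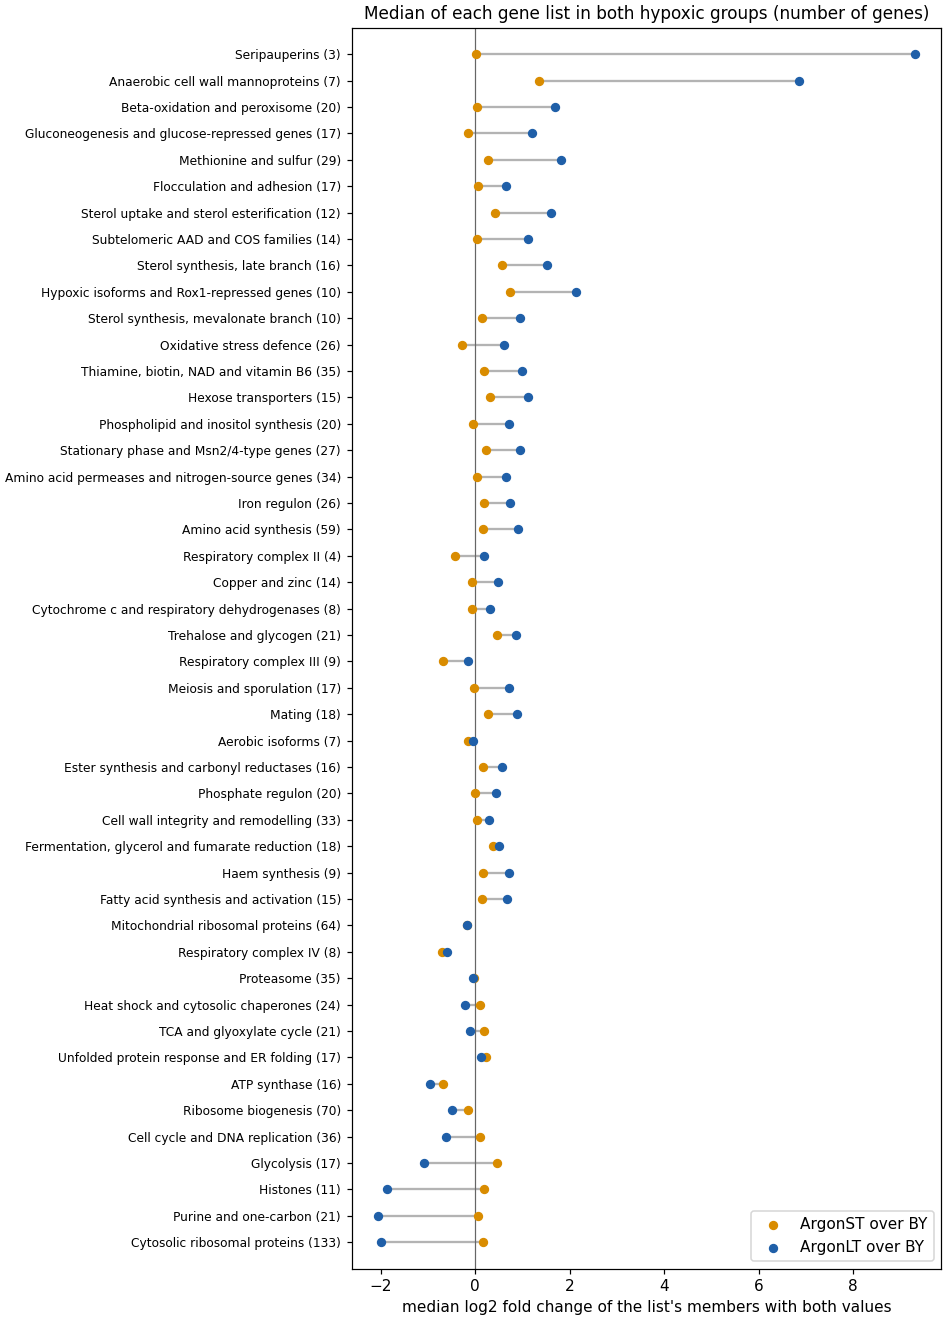
Each line is 1 of 46 gene lists, with the number of genes in parentheses, the orange point the median log2 fold change over BY in ArgonST and the blue point that in ArgonLT. Orange points lie between -0.71 and 1.35, while blue points run from -2.04 for purine and one-carbon genes to 6.85 for mannoproteins and 9.30 for the 3 seripauperins.

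Of the 46 lists 10 had a median difference of 1 or more and 4 of -1 or less. The 4 low lists were cytosolic ribosomal proteins, purine and one-carbon metabolism, histones and glycolysis. The high lists hold seripauperins, mannoproteins, beta-oxidation, glucose-repressed genes, methionine and sulfur, flocculation, sterol uptake, subtelomeric AAD and COS families, late sterol synthesis and hypoxic isoforms. Among genes tested in both comparisons, flocculation (0.71), glucose-repressed genes (0.93) and hypoxic isoforms (0.54) lay below 1 and stationary-phase genes (1.04) above it. With the median difference of all genes subtracted, hypoxic isoforms (0.93) and late sterol synthesis (0.98) lay below 1.

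Other genes far apart between the groups have roles outside central metabolism or no role given here. In the authors' deposited table FLO1, the main flocculin that binds cells together, had 0.43, untested, and rose by 5.88. The related FLO9 had 0.29, untested, and rose by 2.60, while FLO5 fell by 1.01 in ArgonST and had 0.30 in ArgonLT. Reads may be shared among these related genes, so the split between them is uncertain. YSR3, a sphingoid base phosphate phosphatase, had -0.38 and rose by 4.60, and GPG1, a subunit linked to glucose-sensing G protein signalling, had -0.50 and rose by 4.20. ECM13, PBI1, YPR145C-A and YJL213W were higher by 5.01, 5.31, 5.81 and 4.57, and all were called in ArgonLT. PIR3, a covalently bound wall protein, was higher by 3.77, and GAS3, of the glucanosyltransferase family, lower with a difference of -3.29. PMA2, a minor plasma membrane proton pump, fell by 1.40 and rose by 1.41, while PMA1, the main one, had -0.11 and fell by 1.03. MGA1, a heat shock factor-like protein, rose by 0.76 and fell by 2.30. Also low were CIP1 and TDA6, at -2.87 and -2.88.

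Genes near chromosome ends were more often higher in ArgonLT. Within 10 kb of an end 21 of 45 genes (46.7%) were 2-fold higher and 6.67% lower, from 10 to 25 kb 39.5% and 7.24%, and from 25 to 50 kb 21.1% and 9.97%. Beyond 100 kb 15.1% of 4235 genes were higher and 11.5% lower. The share within 25 kb was 41.1% of 197 genes, and 37.6% of 178 when the PAU, DAN, TIR, AAD, COS, FLO and HXT lists were left out. Genes of the COS family, such as COS1 at 1.37 and COS10 at 1.35, share sequence with each other. So do many genes there, and their reads are hard to place. COS111, at 3.07, was counted in the AAD and COS list by name, and no membership of that family is claimed for it.

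**Figure D5:**
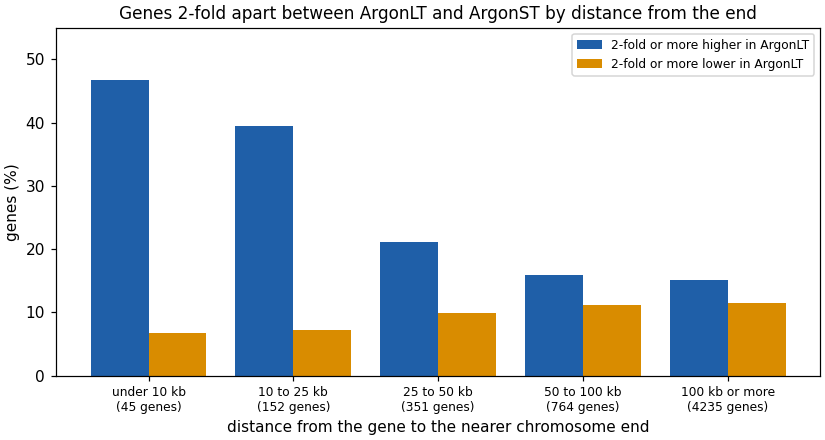
Bars give the percentage of genes in each class of distance to the nearer chromosome end that were at least 2-fold higher (blue) or lower (orange) in ArgonLT than in ArgonST. The share of higher genes goes from 46.7% within 10 kb to 15.1% at 100 kb or more, while the share of lower genes goes from 6.67% to 11.5%.

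Genes without a finite value were read by which groups were listed at 0. The authors' deposited table lists 120 genes at 0 in BY and ArgonST and above 0 in ArgonLT, 17 of them called, among them PAU8, PAU11, PAU13, PAU19 and SPL2, an inhibitor of low-affinity phosphate transport. The reverse state, above 0 in ArgonST alone, was listed for 53 genes, 2 of them called: RPL41A, a ribosomal protein, and YLR111W. Another 75 were listed at 0 in ArgonST alone, 6 of them called lower than BY, and 29 in ArgonLT alone, 4 of them called lower. In 83 genes BY alone was at 0. An entry of 0 may be a failed estimate as well as a missing transcript, so no fold is given.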

How the data were processed

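The libraries were paired-end, made from poly-A RNA, and number 3 per group; the submitters call them biological replicates. Titles gave the groups. The authors deposited a table of log2 fold changes over BY, per the file headers, and of q values, the adjusted p-values per the file headers. Trimmomatic 0.33, TopHat2 2.0.14 and Cuffdiff 2.2.1 are named in the submitters' processing notes, with build R64. Their settings, the annotation and whether strand was used were not given in the sources read, so overlapping antisense genes cannot be told apart. 4 emptied lines were left out and 0 columns of per-sample values were set aside.

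Values of exactly 10 or -10 were read, from the values, as 1 group at 0, and exact 0 as both at 0. The log2 fold change of ArgonST was subtracted from that of ArgonLT. A q of 1 was taken as not tested. In ArgonST that also held for CIT3, IDP2, IDP3, CAT2, CRC1, COS111 and others given by their difference alone. The named genes are the 15 highest and 15 lowest differences among genes called in at least 1 comparison, up to 4 per list, the oxygen and strain markers, and a few others chosen after their values were seen. Members and lists were chosen with earlier results of these data known. RPP1 and CTF19, which do not belong to the lists they had been placed in, were removed later. By systematic name 6022 genes matched RefSeq R64. No test was run. Alternatives were the genes counted, the centring and the fold limit.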

Additional observations from a re-analysis of the deposited data

How the results depend on the processing

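No paired analysis was possible because the deposited table holds no value per library, and for the same reason no library could be left out. The counts of genes at least 2-fold higher and lower in ArgonLT, 976 and 687, became 1662 and 1288 at a 1.5-fold limit and 293 and 191 at a 4-fold limit, as the limit's construction implies. They stayed within 1.5 times the stated counts under the other alternatives: 758 and 657 among genes tested in both comparisons, 747 and 559 among genes called in at least 1, 888 and 779 with the median difference of 0.08 subtracted, 1051 and 716 with genes listed at 10 or -10 added, and 1171 and 769 with genes listed at 0 in BY and 1 hypoxic group also added, an alternative chosen after seeing the data. With centring, the medians of haem synthesis and fatty acid genes changed sign, from 0.07 to -0.01 and from 0.04 to -0.04. Of the 46 list medians 12 moved by 0.1 or more when only genes tested in both comparisons were kept, and 8 in place of 10 were then 1 or more, as also with centring. The depth is unknown, so large differences of weakly covered genes without a call cannot be judged.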

Other observations

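Gene length went with the share of genes apart. Among genes under 500 bases 20.4% were at least 2-fold higher in ArgonLT and 16.2% lower, against 12.6% and 6.62% of genes of 2000 bases or more. Without cytosolic ribosomal proteins the genes under 500 bases had 21.2% and 12.8%.

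In the phosphate regulon 6 of 20 genes were 2-fold higher and none lower, beside 16.7% and 11.8% of all genes. PHO84, the high-affinity phosphate transporter, had -0.42 in ArgonST and rose by 2.89 in ArgonLT in the authors' deposited table, and PHM8, a nucleotide phosphatase, fell by 0.69 in ArgonST and rose by 0.75 in ArgonLT. EEB1, an ethyl ester synthase, was higher by 3.05. YGP1, a secreted glycoprotein linked to nutrient limitation, fell by 0.74 in ArgonST and rose by 1.28 in ArgonLT.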
